A study of Mus musculus with 10 samples.

Results

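The 9 genes described here encode proteins that build the photoreceptor outer segment and the matrix around it: Prph2, Rom1, Cdhr1, Prom1, Abca4, Impg1, Impg2, Crb1 and Prcd. They were chosen by name, as the rows of the deposited count table whose Ensembl identifiers carry these symbols in GENCODE release M21. No measured value entered this rule, but earlier results of these data were known when the genes were listed. All 9 were found among the 57010 rows, and all 9 were among the 15539 genes with enough counts to test. RNA was measured by bulk sequencing in whole retinas of 10 mice aged 6 to 8 weeks when the groups were formed, 14 days after an injection into the vitreous, with 5 mice in each group. The AAV2-GFP group received adeno-associated virus of the AAV2 capsid and the AAV206-GFP group received the AAV206 capsid, and all 10 mice thus carried a vector coding for green fluorescent protein (GFP). The study's title presents its capsid as specific to the retinal pigment epithelium (RPE), the cell layer that faces the outer segments. The strain, the sex, the vector dose and the promoter driving GFP are not given in the sources used here. Retinas without an injection were not used here, and every fold change therefore sets one vector against the other.

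An outer segment is a stack of flat membrane discs that holds the light-sensing machinery, and new discs form at its base while the RPE engulfs old ones at its tip. PRPH2 (peripherin 2) and ROM1 are related tetraspanins that assemble into complexes bending the membrane at the disc rim. CDHR1 (photoreceptor cadherin) and PROM1 (prominin 1) lie at the newly forming discs, PRCD is a small disc membrane protein, and ABCA4 carries retinoid conjugates across the disc membrane. IMPG1 and IMPG2 are proteoglycans of the interphotoreceptor matrix, the gel between photoreceptors and RPE. CRB1, of the Crumbs family of apical polarity proteins, is made by Müller glia and photoreceptors and acts at the adhesion belt called the outer limiting membrane. Mutations in most of these genes are known to cause inherited retinal degeneration in humans.

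The stretch of 250 bases before the transcription start was read for all 9 genes from RefSeq (build GRCm38.p6), in 10 windows because Prom1 had 2 starts. The windows printed here belong to the gene that rose (Crb1) and to the genes with the next 3 smallest p-values (Prcd, Rom1 and Prph2), and they differ in the letters they hold. Each is written 5′ to 3′ on the strand of its gene and ends at the base before the RefSeq start. Capitals mark TAATC on either strand (read as GATTA on the other), the core letters that the photoreceptor factor CRX is known to bind. The windows are chr17:46910228-46910477 on the plus strand for Prph2, chr19:8929357-8929551 on the minus strand for Rom1, chr11:116656858-116657107 on the plus strand for Prcd and chr1:139377077-139377326 on the minus strand for Crb1. The window of Rom1 is printed without its far end, which GENCODE M21 gives to the first exon of the divergent gene Eml3. In the same annotation those of Prph2 and Crb1 reach a few bases into the first exon, and that of Prcd lies inside the limits of the gene but in no exon.
Prph2: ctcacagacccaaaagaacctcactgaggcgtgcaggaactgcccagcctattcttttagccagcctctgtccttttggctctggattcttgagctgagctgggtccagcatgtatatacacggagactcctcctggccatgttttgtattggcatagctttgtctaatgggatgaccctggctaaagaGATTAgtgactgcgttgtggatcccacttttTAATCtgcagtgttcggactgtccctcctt
Rom1: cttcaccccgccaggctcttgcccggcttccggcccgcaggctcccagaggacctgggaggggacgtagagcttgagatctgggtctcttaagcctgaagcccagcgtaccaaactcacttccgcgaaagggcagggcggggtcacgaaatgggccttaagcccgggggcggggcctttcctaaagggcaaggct
Prcd: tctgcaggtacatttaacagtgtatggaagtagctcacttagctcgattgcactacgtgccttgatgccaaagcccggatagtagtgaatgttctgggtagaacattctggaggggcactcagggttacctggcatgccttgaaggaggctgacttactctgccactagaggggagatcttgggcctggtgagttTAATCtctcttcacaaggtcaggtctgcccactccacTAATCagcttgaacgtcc
Crb1: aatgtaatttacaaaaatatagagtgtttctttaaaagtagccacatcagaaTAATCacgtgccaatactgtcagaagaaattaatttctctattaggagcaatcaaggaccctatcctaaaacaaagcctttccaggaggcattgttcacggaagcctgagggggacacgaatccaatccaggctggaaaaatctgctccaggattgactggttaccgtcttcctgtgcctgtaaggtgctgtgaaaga

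In these windows TAATC began 61 and 30 bases before the start of Prph2, 55 and 18 bases before that of Prcd and 198 bases before that of Crb1, and it was not found in the window of Rom1. Among the other members it began 57 and 28 bases before the start of Abca4, 68 and 42 before that of Impg1, 57 before that of Impg2 and 28 before one start of Prom1, and it was not found for Cdhr1. In all, 7 of the 9 genes held TAATC in at least 1 window, beside 19.8% of all 32851 RefSeq windows of the same length. The members are counted as genes and the background as single windows, and Prom1 counts through 1 of its starts. The longer TAATCC, which contains TAATC, was found for 1 member (Abca4), compared with 6.3% of windows. TGCTGA, letters that the rod factor NRL is known to bind, was searched on both strands and was found in none of the 9 genes and in 16.1% of all windows. A match of letters is a description of the window, and binding was not measured.

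Levels are given in CPM, the estimated count relative to the library's adjusted total, as mean ± SD over 5 mice. Per kilobase of merged exon, which allows genes to be compared with each other, the disc rim genes stood highest in the AAV2-GFP group, with Prph2 at 1738 ± 111 and Rom1 at 1105 ± 121.5 CPM per kilobase. Cdhr1 followed at 281 ± 28.7 and Abca4 at 146 ± 20.3 CPM per kilobase. Prom1 (104 ± 9.66), Prcd (100.5 ± 15.2) and Impg1 (90.5 ± 16.1) came next, within each other's spread. Per kilobase of the longest transcript they kept this order but stood farther apart, at 182 ± 17.0 for Prom1, 126 ± 19.0 for Prcd and 97.9 ± 17.4 for Impg1. Impg2 (39.7 ± 6.53) and Crb1 (26.6 ± 2.42) were the lowest of the 9, and these levels exchanged places when the longest transcript was used as the length (53.4 ± 8.78 for Impg2 and 62.6 ± 5.70 for Crb1). In the AAV206-GFP group the means per kilobase were 1567 ± 154 for Prph2, 951 ± 110.0 for Rom1, 268 ± 24.8 for Cdhr1, 146 ± 7.81 for Abca4 and 102 ± 9.70 for Prom1. They were 92.0 ± 12.98 for Impg1, 78.5 ± 12.5 for Prcd, 44.3 ± 6.71 for Impg2 and 32.85 ± 2.27 for Crb1, so Impg1 and Prcd changed order within their spread.

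Between the vectors, Crb1 rose by 23.5% with AAV206-GFP, and the other 8 genes did not pass the test (edgeR's quasi-likelihood test, Benjamini-Hochberg adjusted p under 0.05 over all tested genes). That is 1 of 9, or 11.1%, beside 11.2% of all tested genes called in either direction, and 5.95% called higher and 5.30% called lower. Among the 9, the groups did not overlap for Crb1 alone, beside 9.78% of all tested genes in either direction, 5.41% higher and 4.36% lower. The median log2 fold change of the 9 was −0.02, and that of all tested genes was −0.01. At an unadjusted p under 0.05 the same fit passed 4 of the 9 (Crb1, Prcd, Rom1 and Prph2), beside 28.0% of all tested genes. In whole-retina RNA, fewer cells of a type and less RNA per cell cannot be told apart.

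**Figure D1:**
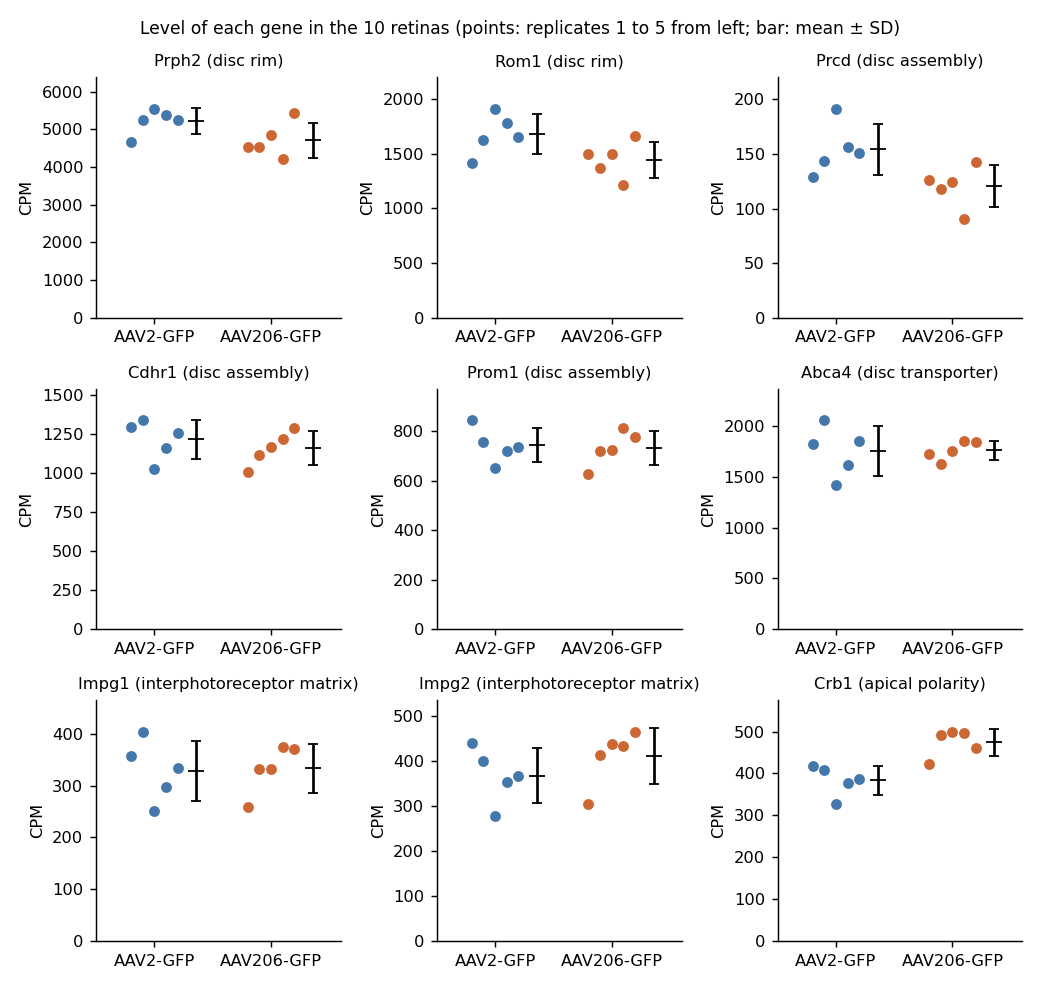
Level of each of the 9 genes in CPM on the vertical axis, which starts at 0 in every panel, for the 5 AAV2-GFP retinas (blue) and the 5 AAV206-GFP retinas (orange). Points are single retinas, replicates 1 to 5 from left to right, and bars are the mean ± SD; in the Crb1 panel every AAV206-GFP point (422 to 499.9 CPM) lies above every AAV2-GFP point (328 to 417 CPM).

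The disc rim genes had the highest levels per kilobase of the 9. Prph2 (ENSMUSG00000023978, chr17:46910459-46924933, plus strand) was at 4663, 5253, 5549, 5374 and 5244 CPM in AAV2-GFP retinas 1 to 5 and at 4537, 4516, 4857, 4199 and 5417 CPM in AAV206-GFP retinas 1 to 5. Of the AAV206-GFP values, 3 lay below the lowest AAV2-GFP value, while AAV206-GFP retina 5, the highest of its group, lay inside the AAV2-GFP range. The means were 5216 ± 333 and 4705 ± 461 CPM (log2 fold change −0.15, SE 0.07, adjusted p = 0.154 by edgeR).

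Rom1 (ENSMUSG00000071648, chr19:8927391-8929356, minus strand) was at 1418, 1625, 1911, 1780 and 1649 CPM in AAV2-GFP retinas 1 to 5 and at 1493, 1365, 1492, 1209 and 1656 CPM in AAV206-GFP retinas 1 to 5. No AAV206-GFP retina exceeded the AAV2-GFP mean, and the groups overlapped. The means were 1677 ± 184 and 1443 ± 167 CPM (log2 fold change −0.22, SE 0.09, adjusted p = 0.111 by edgeR).

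Because PRPH2 and ROM1 share the rim complexes, the ratio of their counts was taken within each retina, which needs no scaling between libraries. The exon lengths of Prph2 and Rom1 differ (3002 and 1517 bases), so the ratio can still carry a library's trend on exon length, described below. The log2 ratio of Prph2 to Rom1 counts was 1.72, 1.69, 1.54, 1.59 and 1.67 in AAV2-GFP retinas 1 to 5 and 1.603, 1.73, 1.70, 1.80 and 1.71 in AAV206-GFP retinas 1 to 5. It stayed within a narrow range in all 10 retinas, from 2.90 to 3.47 Prph2 counts per Rom1 count. The ratio was lowest in AAV2-GFP retina 3 and highest in AAV206-GFP retina 4, the libraries with the lowest and the highest slope of level on exon length (given below). The group means of the log2 ratio, 1.64 ± 0.07 and 1.71 ± 0.07, differed by 0.0654, less than the SD within a group. The difference ranged from 0.0393 without AAV2-GFP retina 3 to 0.0915 without AAV206-GFP retina 1, the latter above that SD.

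Of the genes of disc assembly, Cdhr1 (ENSMUSG00000021803, chr14:37077857-37098347, minus strand) was at 1295, 1341, 1028, 1165 and 1260 CPM with AAV2-GFP and at 1007, 1117, 1168, 1220 and 1291 CPM with AAV206-GFP, in replicate order. The groups covered nearly the same range, with means of 1218 ± 124 and 1161 ± 107 CPM (log2 fold change −0.07, SE 0.08, adjusted p = 0.598 by edgeR). Prom1 (ENSMUSG00000029086, chr5:43993620-44102032, minus strand) was at 846, 759, 654, 723 and 739 CPM with AAV2-GFP and at 629.5, 719, 726, 813 and 778 CPM with AAV206-GFP. Its means of 744 ± 69.3 and 733 ± 69.6 CPM also lay within the spread (log2 fold change −0.02, SE 0.08, adjusted p = 0.885 by edgeR). Prom1 counts carried decimals in 9 of the 10 libraries, as arises when reads are divided between genes, and 424 of its exon bases are shared with the antisense transcript Gm16401. Gm16401 itself was at 5.72 ± 1.08 and 7.08 ± 0.57 CPM, far below the Prom1 level, and the library kit does not mark strand.

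Prcd (ENSMUSG00000075410, chr11:116653534-116668389, plus strand) had the most negative log2 fold change of the 9. It was at 129, 144, 192, 156 and 150.5 CPM in AAV2-GFP retinas 1 to 5 and at 126, 118, 125, 90.4 and 143 CPM in AAV206-GFP retinas 1 to 5. All AAV206-GFP values lay below the AAV2-GFP mean and 4 of the 5 lay below the lowest AAV2-GFP value, with retina 5 inside the AAV2-GFP range. The means were 154 ± 23.3 and 120.4 ± 19.1 CPM (log2 fold change −0.36, SE 0.11), and the adjusted p of 0.0513 by edgeR was just over the threshold. The call depended on the test and the libraries: the adjusted p was 0.0167 by DESeq2, and with edgeR 0.0221 without AAV2-GFP retina 1 and 0.0301 without AAV206-GFP retina 5. Prcd counts carried decimals in 4 libraries, and 201 of its exon bases are shared with Cygb, the cytoglobin gene on the opposite strand. Cygb was at 116 ± 17.0 and 106.5 ± 10.2 CPM (log2 fold change −0.12, SE 0.09, adjusted p = 0.427 by edgeR), and reads of the shared bases cannot be assigned to a strand.

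Abca4 (ENSMUSG00000028125, chr3:122044443-122180123, plus strand), the disc transporter, was at 1824, 2055, 1418, 1614 and 1851 CPM with AAV2-GFP and at 1724, 1623, 1753, 1854 and 1839 CPM with AAV206-GFP. Every AAV206-GFP value fell inside the AAV2-GFP range. The means, 1752 ± 244 and 1758 ± 93.9 CPM, were almost equal (log2 fold change 0.0051, SE 0.08, adjusted p = 0.977 by edgeR).

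Neither matrix proteoglycan gene passed the test. Impg1 (ENSMUSG00000032343, chr9:80313330-80465481, minus strand) was at 357, 404, 251, 297 and 334 CPM with AAV2-GFP and at 258, 332, 332, 375 and 371 CPM with AAV206-GFP. It had means of 329 ± 58.3 and 334 ± 47.1 CPM (log2 fold change 0.02, SE 0.12, adjusted p = 0.922 by edgeR). Impg2 (ENSMUSG00000035270, chr16:56204313-56273756, plus strand) was at 440.4, 401, 278, 353 and 367 CPM with AAV2-GFP and at 305, 413, 438, 434.5 and 466 CPM with AAV206-GFP. For Impg2, 4 of the 5 AAV206-GFP values lay above the AAV2-GFP mean, but only 1 lay above the highest AAV2-GFP value. Its means were 368 ± 60.5 and 411 ± 62.2 CPM (log2 fold change 0.16, SE 0.12, adjusted p = 0.388 by edgeR). In the AAV2-GFP group Impg1 and Impg2 had the highest coefficients of variation of the 9, 17.7% and 16.5%, beside 6.39% for Prph2, the lowest. In the AAV206-GFP group they were 14.1% and 15.1%, below the 15.9% of Prcd.

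The log2 ratio of Impg1 to Impg2 counts was −0.30, 0.01, −0.15, −0.25 and −0.14 in AAV2-GFP retinas 1 to 5 and −0.24, −0.31, −0.40, −0.21 and −0.33 in AAV206-GFP retinas 1 to 5. The groups overlapped, with means of −0.17 ± 0.12 and −0.30 ± 0.07. Their difference of −0.13 was close to the SD of the AAV2-GFP group, and it was not tested. It was −0.0889 without AAV2-GFP retina 2 and −0.2082 without AAV2-GFP retinas 1 and 4. With exon lengths of 3630 bases for Impg1 and 9275 bases for Impg2, this ratio can also carry a library's trend on exon length.

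Crb1 (ENSMUSG00000063681, chr1:139197056-139377100, minus strand), the polarity gene, was at 417, 409, 328, 378 and 388 CPM in AAV2-GFP retinas 1 to 5 and at 422, 492, 499.9, 496 and 461 CPM in AAV206-GFP retinas 1 to 5. All 5 AAV206-GFP values lay above the highest AAV2-GFP value, although the lowest of them, in retina 1, exceeded it by little. The means were 384 ± 35.0 and 474 ± 32.8 CPM, a 1.24-fold increase (log2 fold change 0.30, SE 0.07, adjusted p = 0.0132 by edgeR). Among all tested genes this log2 fold change stood at percentile 88.1, and that of Prcd at percentile 9.2. Crb1 stayed past the threshold when any 1 of the 10 libraries was left out, with log2 fold changes of 0.25 to 0.34 and adjusted p of 0.00792 to 0.0409. Some laboratory mouse strains carry the rd8 allele of Crb1, and since the strain is not given the allele in these mice is unknown.

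**Figure D2:**
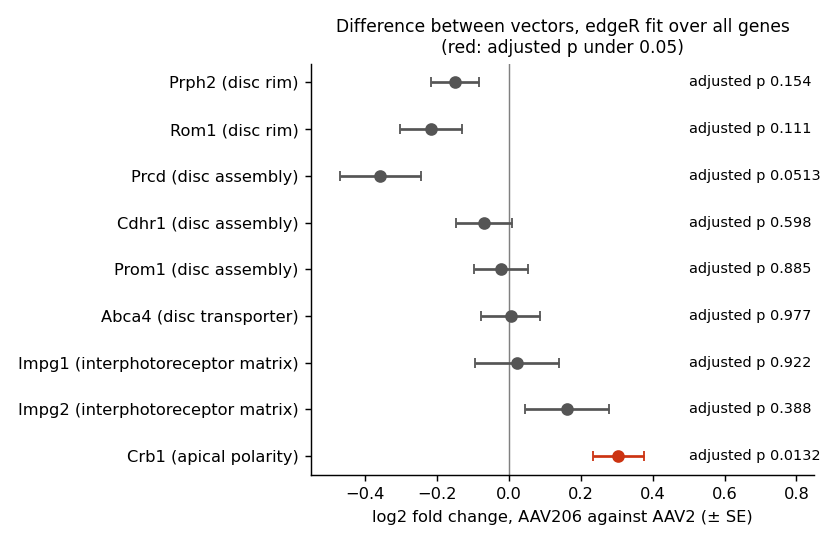
Log2 fold change of AAV206-GFP against AAV2-GFP for each gene (horizontal axis; points with bars of ± SE), from the edgeR fit over all tested genes, with the adjusted p at the right. Crb1 is the only gene in red (adjusted p = 0.0132), and Prcd, at −0.36, is the farthest on the negative side with an adjusted p of 0.0513.

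Müller glia, a source of Crb1 RNA, were followed by 7 marker genes fixed in a list. None of the 7 passed edgeR's test, and 4 of them had an unadjusted p under 0.05, beside 11.2% and 28.0% of all tested genes. DESeq2 called 2 of the 7 and limma-voom 0, beside 2265 and 1643 of all 15539 tested genes. Their summed level was 3405 to 4262 CPM with AAV2-GFP and 3100 to 3763 CPM with AAV206-GFP, and 6 of the 7 had negative log2 fold changes, with a median of −0.19. Summed rod markers were at 53220 to 56740 CPM with AAV2-GFP and at 56910 to 62780 CPM with AAV206-GFP. Such a sum is weighted toward its most abundant genes. Of the 8 rod markers 2 rose, beside 5.95% of all tested genes called higher. Of the same 8, 5 had positive and 3 had negative log2 fold changes, with a median of 0.07. The part of either cell type in the level of Crb1 was not tested.

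The genes whose levels followed Crb1 most closely over the 10 libraries, among 10281 tested and named genes of at least 10 CPM, were Celf1, Hipk3 and Wrn. Pearson's r of log2(CPM + 1) with Crb1 was 0.99 for Celf1, which encodes an RNA-binding splicing factor, 0.98 for Hipk3, a protein kinase, and 0.97 for Wrn, a DNA helicase. Genes measured in a library share its depth and its length trend, and a correlation over libraries is a description only. Celf1 was at 156 ± 8.67 and 179.7 ± 7.47 CPM (log2 fold change 0.21, adjusted p = 0.0327 by edgeR), Hipk3 at 280.5 ± 23.6 and 335 ± 23.5 CPM (0.26, adjusted p = 0.0281) and Wrn at 10.8 ± 1.61 and 15.15 ± 1.88 CPM (0.49, adjusted p = 0.0282). Each of these 3 calls was lost when AAV2-GFP retina 4 or any of AAV206-GFP retinas 2, 3 and 4 was left out, that of Celf1 also without AAV2-GFP retina 3 or 5 and that of Wrn without AAV2-GFP retina 3. The highest adjusted p in these fits was 0.0821 for Celf1, 0.0706 for Hipk3 and 0.0743 for Wrn. With the length trend removed, an alternative described with the length values, the call of Celf1 was lost as well (0.15, adjusted p = 0.059), and those of Hipk3 (0.20, adjusted p = 0.0322) and Wrn (0.44, adjusted p = 0.0313) were kept.

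Across the 10 retinas the 9 genes fell into a set of 3 and a set of 6 whose levels varied together within each set, and the sets varied in opposite ways mainly among the AAV2-GFP retinas. The 3 pairs among Prph2, Rom1 and Prcd had Pearson's r of 0.913 to 0.973 (log2(CPM + 1), n = 10 libraries), and 0.866 to 0.962 once group means were removed. Among Cdhr1, Prom1, Abca4, Impg1, Impg2 and Crb1 the 15 pairs had r of 0.235 to 0.914, and 0.614 to 0.965 with group means removed. Of the 18 pairs between the sets 17 were negative, from −0.852 to 0.129, and with group means removed all 18 were, from −0.72 to −0.024. Within the AAV2-GFP group alone all 18 were negative, but within the AAV206-GFP group 7 of the 18 were positive. The sets were seen in the data, and the 3 genes of the first are those with the shortest exon length. The correlations are given with no test, since genes measured in a library share its depth and scaling.

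Single retinas differed in this. AAV2-GFP retina 3 had the highest values of its group for Prph2, Rom1 and Prcd and the lowest for the other 6 genes. AAV2-GFP retina 1 had the lowest values of its group for Prph2, Rom1 and Prcd and the highest for Prom1, Impg2 and Crb1. AAV206-GFP retina 4 had the lowest values of its group for Prph2, Rom1 and Prcd and the highest for Prom1, Abca4 and Impg1. AAV206-GFP retina 1 had the lowest Cdhr1, Prom1, Impg1, Impg2 and Crb1 of its group, with no extreme value of the first set. AAV206-GFP retina 5 went against the opposition, with the highest Prph2, Rom1 and Prcd of its group and also the highest Cdhr1 and Impg2.

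The levels of the 9 genes moved with a property of the libraries that involves all genes, the dependence of level on exon length. The slope of log2 level on log2 exon length over 15288 tested genes, relative to the mean library, was −0.0028, 0.0166, −0.1001, −0.0415 and 0.0024 in AAV2-GFP libraries 1 to 5. It was 0.0053, 0.0232, 0.0262, 0.0733 and −0.0024 in AAV206-GFP libraries 1 to 5, so the lowest slope was that of AAV2-GFP retina 3 and the highest that of AAV206-GFP retina 4. AAV2-GFP retina 1, which also had opposite extremes in the sets, was not at an extreme of the slope (−0.0028). Over the 10 libraries Pearson's r with this slope was −0.919 for Prcd, −0.873 for Rom1 and −0.74 for Prph2. It was positive for the other 6, from 0.404 for Cdhr1 to 0.867 for Crb1.

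**Figure D3:**
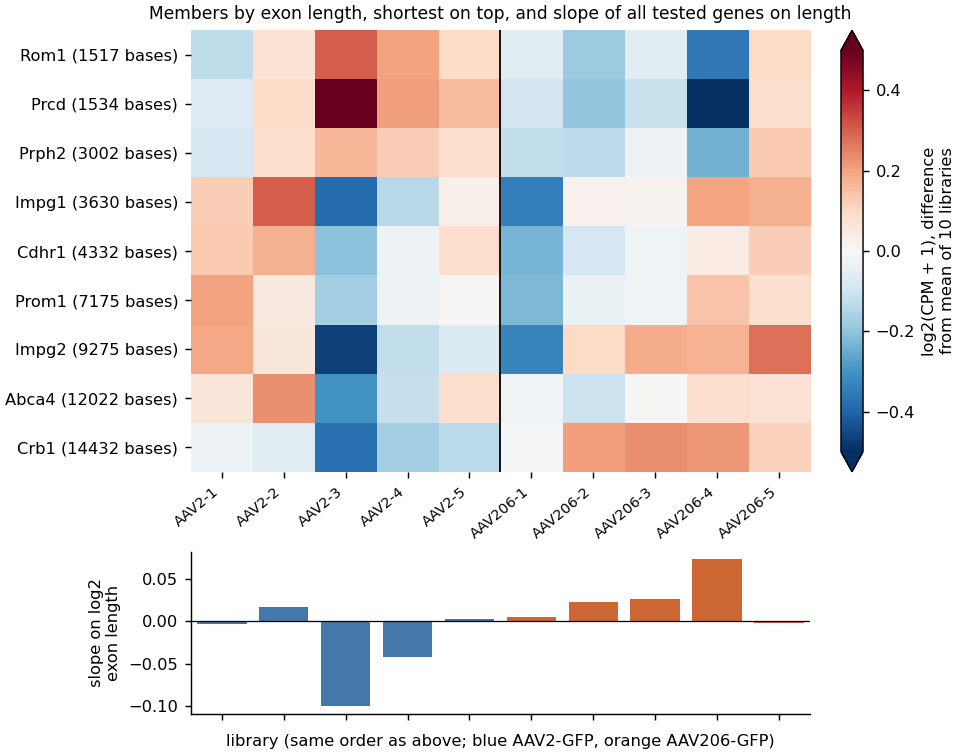
Top: log2(CPM + 1) of each gene in each library as a difference from the gene's mean over the 10 libraries (colour scale from −0.5 in blue to 0.5 in red), with genes ordered by exon length from Rom1 (1517 bases) to Crb1 (14432 bases). Bottom: the slope of all tested genes on log2 exon length in the same libraries; AAV2-GFP retina 3 has the lowest slope, with Rom1, Prcd and Prph2 in red and the other genes in blue, and AAV206-GFP retina 4 has the highest.

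The same order appeared in the comparison of the vectors. Rom1 (1517 bases of exon) and Prcd (1534 bases) are the shortest of the 9 and had the most negative log2 fold changes. Crb1 is the longest by merged exon (14432 bases) and had the highest log2 fold change. Its longest transcript (6135 bases) is shorter than those of Abca4 (7263 bases) and Impg2 (6890 bases), whose log2 fold changes were 0.0051 and 0.16. Across the 9 genes the log2 fold change had a Pearson's r of 0.884 and a Spearman's rho of 0.85 with log2 exon length. With the longest transcript as the length, r was 0.863 and rho 0.783 for the 9. Across all 15288 tested genes with an exon length r was 0.141 and rho 0.242. Genes are not independent replicates, so these are descriptions. Among all tested genes of 1000 to 2000 bases the median log2 fold change was −0.13, with 45 called higher and 129 called lower. Among the 863 genes over 12000 bases it was 0.10, with 103 called higher and 12 called lower.

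When the trend on exon length was removed from each library, an alternative added after the data were seen, Crb1 stayed past the threshold at a smaller log2 fold change of 0.20 (SE 0.05, adjusted p = 0.0179 by edgeR). It stayed past it also with the trend on GC content removed as well (0.17, adjusted p = 0.0234), but not with the length trend removed and the replicate number as a block (0.20, adjusted p = 0.0595). Prcd had a log2 fold change of −0.23 (SE 0.08, adjusted p = 0.0676) without the length trend. Rom1 and Prph2 were at −0.09 each, with adjusted p of 0.333 and 0.291. The source of the length trend was not tested.

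**Figure D4:**
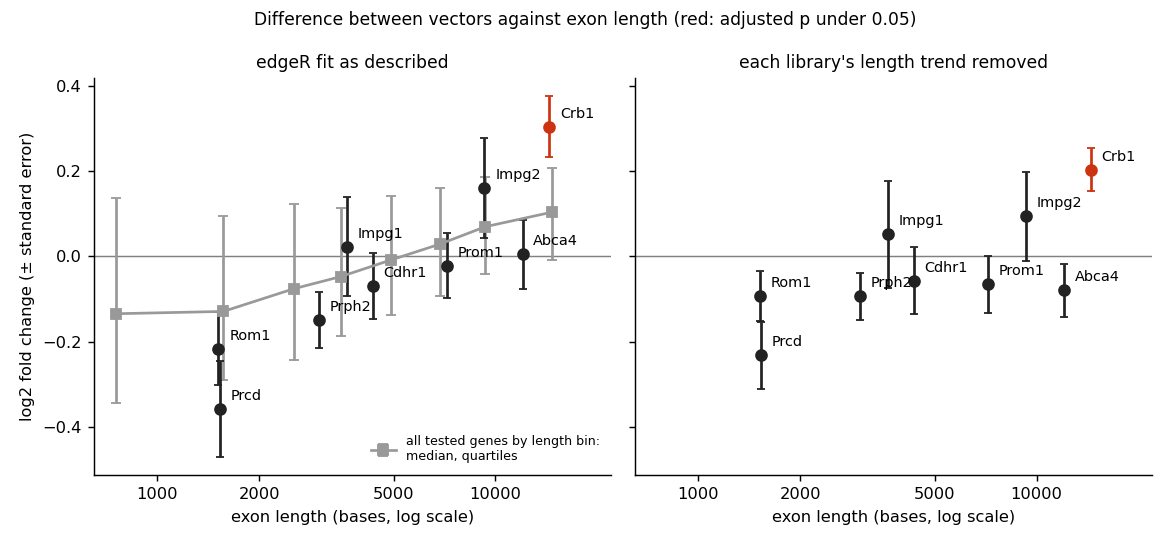
Log2 fold change (± SE) of the 9 genes against exon length in bases on a log axis, in the fit as described (left, with the median and quartiles of all tested genes in bins of length as grey squares) and with the length trend of each library removed (right). Red marks an adjusted p under 0.05, which is Crb1 in both panels (0.30 and 0.20); the values of the short genes Rom1 and Prcd lie nearer to 0 on the right.

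Other genes of the same structures were taken from lists written from known roles, but with earlier results of these data known. Their counts stand beside the 11.2% of all tested genes called and the median log2 fold change of −0.01 over all of them. Of 26 other genes listed for the discs and the outer segment plasma membrane, all tested, 3 rose and 2 fell with AAV206-GFP (19.2%). Their median log2 fold change was 0.06. Glb1l2, a galactosidase-like protein, was at 159.5 to 189 CPM with AAV2-GFP and at 236 to 273 CPM with AAV206-GFP, without overlap. Its means were 178 ± 12.4 and 252 ± 13.98 CPM (log2 fold change 0.50, SE 0.06, adjusted p = 0.000148 by edgeR). Rgs9, the GTPase activator that ends the light response, rose from 477 ± 169.9 to 822.5 ± 95.4 CPM (0.79, SE 0.18, adjusted p = 0.0132). Transducin's rod gamma subunit gene, Gngt1, fell from 374 ± 51.4 to 271 ± 26.5 CPM (−0.47, SE 0.09, adjusted p = 0.00387). Pde6g, the inhibitory subunit of the rod phosphodiesterase, fell from 1506 ± 154 to 1244 ± 97.3 CPM (−0.28, SE 0.07, adjusted p = 0.0244), and its call was lost without AAV2-GFP retina 4 or AAV206-GFP retina 2, 3 or 4 (adjusted p up to 0.0671). Gnat1, the rod transducin alpha subunit gene and the most abundant one reported from the list, was at 11100.0 ± 450.4 and 9999 ± 629.6 CPM and did not pass (−0.15, adjusted p = 0.0612).

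Calyceal processes, in species whose photoreceptors have them, are microvilli that ring the base of the outer segment. Whether the photoreceptors of these mice have such processes was not measured, and the values are RNA levels of the listed genes. Of 10 listed genes of these processes and of adhesion at the disc edge, 9 were tested, 2 rose and 2 fell (44.4%), with a median log2 fold change of 0.01. Pcdh15, a protocadherin of the disc edge, was at 185 to 234.5 CPM with AAV2-GFP and at 256 to 341 CPM with AAV206-GFP, without overlap, and rose from 209 ± 22.4 to 298 ± 35.3 CPM (0.51, SE 0.09, adjusted p = 0.0018). The actin bundler gene Espn fell from 43.6 ± 4.10 to 34.8 ± 1.67 CPM (−0.32, adjusted p = 0.0132), and the scaffold gene Whrn from 232 ± 15.3 to 189 ± 23.7 CPM (−0.30, adjusted p = 0.0288). With the length trend removed, Pcdh15 (0.38, adjusted p = 0.00034), Espn (−0.39, adjusted p = 0.00572) and Whrn (−0.34, adjusted p = 0.012) stayed past the threshold. The call of Whrn was lost when AAV2-GFP retina 2, 4 or 5 or AAV206-GFP retina 2, 3 or 4 was left out (adjusted p up to 0.0759). Adgrv1, a large adhesion receptor and the most abundant gene reported from this list, was at 278 ± 39.2 and 280.0 ± 19.98 CPM and did not pass (0.0097, adjusted p = 0.958).

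Of 23 other genes of the interphotoreceptor and retinal extracellular matrix, 20 were tested and 1 rose (5.0%), with a median log2 fold change of −0.05. The gene that rose was Hapln3, a link protein that holds hyaluronan to proteoglycans, at 2.90 ± 0.58 and 7.08 ± 0.75 CPM, without overlap (1.29, SE 0.18, adjusted p = 0.000333 by edgeR). Rbp3, the retinoid carrier of the interphotoreceptor matrix and the most abundant gene of this list, was at 5362 ± 730.2 and 5975 ± 538 CPM and did not pass (0.16, adjusted p = 0.246). The hyaluronan synthase gene Has2 and the proteoglycan gene Acan had too few counts to test.

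Of 24 other genes of apical polarity and the outer limiting membrane, all tested, 1 rose and 3 fell (16.7%), with a median log2 fold change of −0.06. The other Crumbs genes did not pass, with Crb2 at 219 ± 14.5 and 214.5 ± 17.2 CPM (−0.03, adjusted p = 0.828). Mpp7, a scaffold of the same complexes, rose from 43.2 ± 4.95 to 54.1 ± 4.82 CPM (0.33, adjusted p = 0.0241). Nectin1, an adhesion protein, fell from 121 ± 7.44 to 96.1 ± 3.46 CPM (−0.34, adjusted p = 0.00198), without overlap. Jam3, a junction protein, was at 31.4 ± 2.39 and 24.2 ± 3.70 CPM (−0.37, adjusted p = 0.0323, with decimals in 8 libraries), and Prkcz, an atypical protein kinase C, was at 151 ± 6.09 and 133 ± 4.03 CPM (−0.18, adjusted p = 0.0459). Mpp4, the most abundant gene of the list, was at 601 ± 34.7 and 645 ± 15.7 CPM and did not pass (0.10, adjusted p = 0.226). The call of Nectin1 held without any 1 library (adjusted p up to 0.00834), and that of Prkcz was lost in 9 of the 10 such fits, holding only without AAV2-GFP retina 1 (adjusted p up to 0.12). Those of Mpp7 and Jam3 were lost without AAV2-GFP retina 3, 4 or 5 or AAV206-GFP retina 2 or 4, and that of Mpp7 also without AAV206-GFP retina 3 (adjusted p up to 0.069 and 0.0766).

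**Figure D5:**
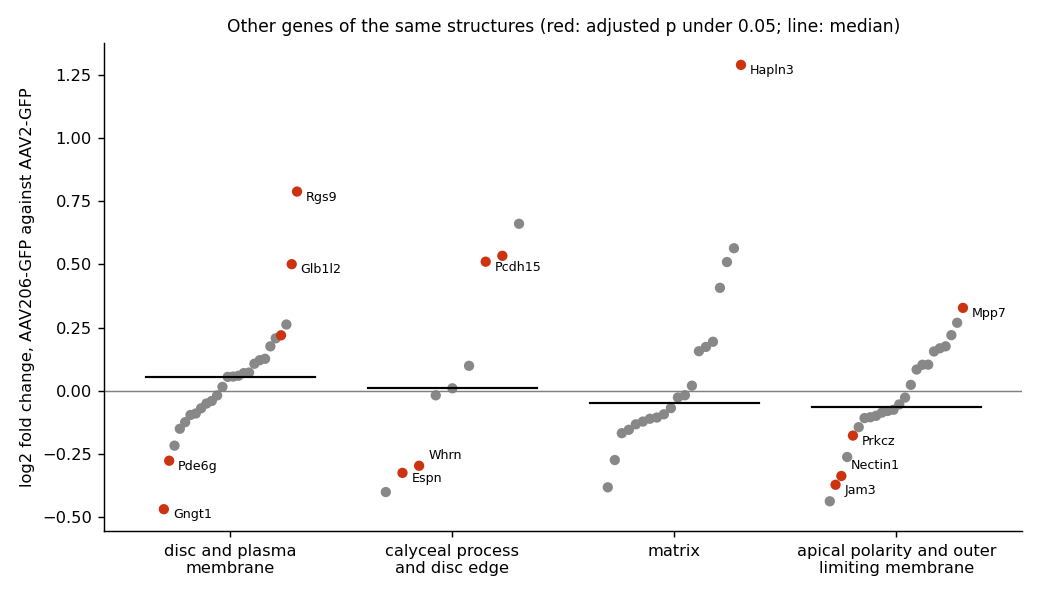
Log2 fold change of AAV206-GFP against AAV2-GFP (vertical axis) for the tested genes of the 4 other lists, each point a gene, ordered within a list by its value. Red points have an adjusted p under 0.05 and most carry their names, and lines are list medians, which lie between −0.06 and 0.06; Hapln3, at 1.29, is the highest point.

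Total counts were 10989843 to 12752604 per library. The retina label was matched by rod and cone markers, with summed cone markers at 852 to 950.0 CPM with AAV2-GFP and at 949 to 1005 CPM with AAV206-GFP (2 of 8 rose, 1 fell). RPE markers, of the cells next to the outer segments, summed to 14.7 to 44.2 and 17.3 to 25.9 CPM, and 1 of 7 tested fell. The counts of called markers in these lists stand beside 5.95% of all tested genes called higher and 5.30% called lower. Microglia and macrophage markers summed to 20.6 to 152 and 16.6 to 22.4 CPM, with 152 CPM in AAV2-GFP retina 1, where lymphocyte markers were also highest (20.7 CPM, beside at most 1.35 CPM in the other libraries). Lens markers summed to 10.2 to 29.0 and 1.095 to 11.5 CPM, with Lim2 at 0 in all libraries, and 2 of 2 tested fell. Erythrocyte markers summed to 67.8 to 85.8 and 101 to 319 CPM, and 4 of 5 rose. Bipolar cell markers summed to 962 to 1279 and 842 to 1309 CPM, and 1 of 7 fell. In AAV2-GFP retina 4, unlike retina 1, microglia and macrophage markers summed to 28.1 CPM and lymphocyte markers to 0.887 CPM. With AAV2-GFP retinas 1 and 4 both left out, an alternative chosen after seeing the data, Crb1 had a log2 fold change of 0.33 (adjusted p = 0.0359 by edgeR). The part of these cell types in the other results was not tested.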

How the data were processed

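Trizol-extracted retinal RNA was sequenced in read pairs (Illumina NovaSeq) after preparation with NEBNext Ultra RNA reagents, per the labels' protocols; this kit does not mark strand. The authors deposited estimated counts per gene, unscaled, in a table of 57010 Ensembl identifiers, and 5.95% of the values carried decimals. The submitters' processing notes name STAR 2.7.10b, RSEM 1.3.1 and the build mm10. The annotation release and the strand setting are not given in the sources used here. Symbols, coordinates and exon lengths came from GENCODE M21 (GRCm38), which named 91.35% of identifiers and left 0.519% of counts unnamed.

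Groups and replicate numbers came from sample titles. Counts were rounded and fitted with edgeR 4.0.16 (R 4.3.3): filterByExpr with a minimum count of 10, TMM scaling, a quasi-likelihood F test over all 10 libraries without covariates, and Benjamini-Hochberg adjustment over 15539 genes. DESeq2 1.42.0, limma-voom (limma 3.58.1), other scalings, filters and a replicate block were alternatives, and the script was tested on simulated counts. Standard errors are on the log2 scale. The length trend was a lowess curve of log2 level on exon length in each library, removed as an offset. Each p-value sets the difference between groups against the spread between libraries of a group. That spread holds differences between mice together with those of dissection and library preparation.

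The members and lists were chosen with earlier results of these data known. From each list every gene past the threshold was named up to 4, otherwise the 4 with the smallest p-values, together with the most abundant gene, and the 3 genes most alike to each member past it. Genes named beyond this (Crb2, Has2, Acan, the overlapping or neighbouring Cygb, Gm16401 and Eml3, and Lim2) were chosen after their values were seen. Of the genes chosen by the rule, 2 are not reported here, although counts include them. Protein sequences were not used here.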

Additional observations from a re-analysis of the deposited data

Results flagged for a closer look

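In 22 sets of 5 values (each member and each ratio in each group) no retina stood apart from the other 4 by Dixon's test, which by chance picks about 1 in 20.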

How the results depend on the processing

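The rise of Crb1 stayed past the threshold in 12 of 13 alternative fits and in all 10 that left out a library; it missed it with the length trend removed and the replicate block (log2 fold change 0.20, adjusted p = 0.0595 by edgeR). Prcd passed with DESeq2-type scaling (−0.36, adjusted p = 0.0499), no low-count filter (−0.36), a stricter filter (−0.35), DESeq2 (−0.36) and with AAV2-GFP libraries 1 and 4 both left out (−0.44), and in 2 of 10 fits without a library, which ranged from −0.42 to −0.27. Without a library Prph2 ranged from −0.20 to −0.11 (past the threshold only without AAV206-GFP retina 5, adjusted p = 0.0394) and Rom1 from −0.27 to −0.16 (only without AAV2-GFP retina 1, adjusted p = 0.0393). Impg2 (0.16) ranged from 0.0743 without AAV2-GFP retina 3 to 0.2512 without AAV206-GFP retina 1, and Cdhr1 (−0.07) from −0.1255 without AAV2-GFP retina 3 to −0.0225 without AAV206-GFP retina 1, neither past the threshold. The signs of 3 members near 0 changed. Prom1 ranged from −0.0656 to 0.0286 without a library and was 0.024 without AAV2-GFP libraries 1 and 4, and Impg1 ranged from −0.061 to 0.11. Abca4 ranged from −0.063 to 0.0681 without a library. It was −0.0001 with library size only, −0.0796 with the length trend removed, −0.0827 with length and GC trends removed, −0.0765 with the length trend removed and the block, and −0.021 without AAV2-GFP libraries 1 and 4. None of these passed the threshold, and the cause was not tested.

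Of all tested genes, 1747 passed in the fit as described, 1085 with the replicate block, 985 without AAV2-GFP libraries 1 and 4, and 991 to 1912 when a library was left out (lowest without AAV2-GFP retina 4). The 4 calls of the calyceal list became 2 without AAV2-GFP libraries 1 and 4. The 4 calls of the polarity list became 1 with the replicate block, 1 with the length trend removed and the block, 1 without AAV2-GFP libraries 1 and 4, and 1 to 4 without a library. Correlations of same-numbered deviations were −0.0518 to 0.0405 and gave no sign that equal replicate numbers pair the retinas. They cannot exclude pairing, since each rests on 1 pair of libraries. Crb1 had an adjusted p of 0.0417 by edgeR with the replicate block. The alternatives on length, on GC, on AAV2-GFP libraries 1 and 4, and those that left out each library for the counts of the other lists were chosen after seeing the data. Prph2 and Rom1 passed the unadjusted threshold and missed the adjusted one.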
